A study of Rattus norvegicus with 2 samples.

Results

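The AMPA receptor genes Gria1, Gria2, Gria3 and Gria4 and the gene of the auxiliary protein Cnih2 were followed across the only comparison of the study, hippocampal synaptosomes against the total hippocampus, which was made to find mRNAs concentrated at synapses. They are 5 of 4736 genes named on the array. Every probe set whose platform annotation gives 1 of these symbols and no other was taken, which yielded 11 of 8799 probe sets. Gria1 and Gria4 have 3 probe sets each, Gria2 and Gria3 have 2 each, and Cnih2 has 1. Synaptosomes are sealed nerve endings with adhering postsynaptic membrane, isolated biochemically. Both RNA samples came from Sprague Dawley rats at postnatal day 70, with hippocampus as the tissue and no treatment named in the labels. Each was hybridised to 1 Affymetrix array after cDNA synthesis with the SMART kit and transcription from a T7 promoter, so that every value is a single measurement, no test between the fractions was possible, and the number of arrays limits the precision. The labels do not say how many rats were pooled.

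AMPA receptors are tetrameric glutamate-gated cation channels that carry most fast excitatory transmission in the brain. The subunits GluA1 to GluA4 are encoded by Gria1 to Gria4. In adult hippocampal pyramidal neurons GluA1, GluA2 and GluA3 predominate, while GluA4 is prominent in some interneurons. Cnih2, or cornichon-2, associates with AMPA receptors in the hippocampus, promotes their export from the endoplasmic reticulum and slows their deactivation and desensitisation. mRNAs of AMPA receptor subunits have been described in dendrites as well as in cell bodies.

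Cnih2 had the largest difference among these genes, with a signal 3.88 times as high in synaptosomes as in the total hippocampus. The subunit genes had no such difference at their brighter probe sets. Of 10 subunit probe sets, 6 had the higher signal in synaptosomes and 4 in the hippocampus. The 7 above the floor on both arrays, defined below, differed by less than 2-fold in either direction. Only 4 of these 7 were above the noise limit, also defined below, on both arrays. In tissue RNA of this kind, fewer cells or endings of a type and less RNA in each cannot be told apart.

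Signals are the authors' deposited intensities, in arbitrary units. For ratios, values under a floor of 846, the median of all non-control values on both arrays, were raised to it. Log2 ratios are synaptosome minus total hippocampus, less their median over all filtered probe sets, -0.17, a step called centring here. Centring multiplies each synaptosome over hippocampus quotient by 1.13, and a ratio is given without it where the difference matters. Negative intensities give a rough measure of the noise: 95% of them were no larger in size than 2912.6 for synaptosomes and 5280.25 for the hippocampus, called the noise limits here. Levels of different probe sets depend on their probes, so no difference in level between them is read as one in mRNA abundance.

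Cnih2 was measured by a single probe set, rc_AA866291_at. Its signal was 8511 in synaptosomes and 2192 in the hippocampus, a difference of 6319 units. Synaptosomes thus had the higher reading, and with centring the ratio was 2.13 on the log2 scale, or 4.37-fold. By rank, which needs no scaling between arrays, the probe set stood at percentile 90.4 of the non-control probe sets on the synaptosome array and at 69.2 on the hippocampus array. Of the 4370 probe sets past the filter on low values, 3.30% had a ratio as high or higher. Among the 3392 above the floor on both arrays its rank from the top was 55. The hippocampus reading lay under the noise limit of that array, so the size of the fold is uncertain. With the floor on each array raised to its noise limit, the log2 ratio was 0.85.

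**Figure D1:**
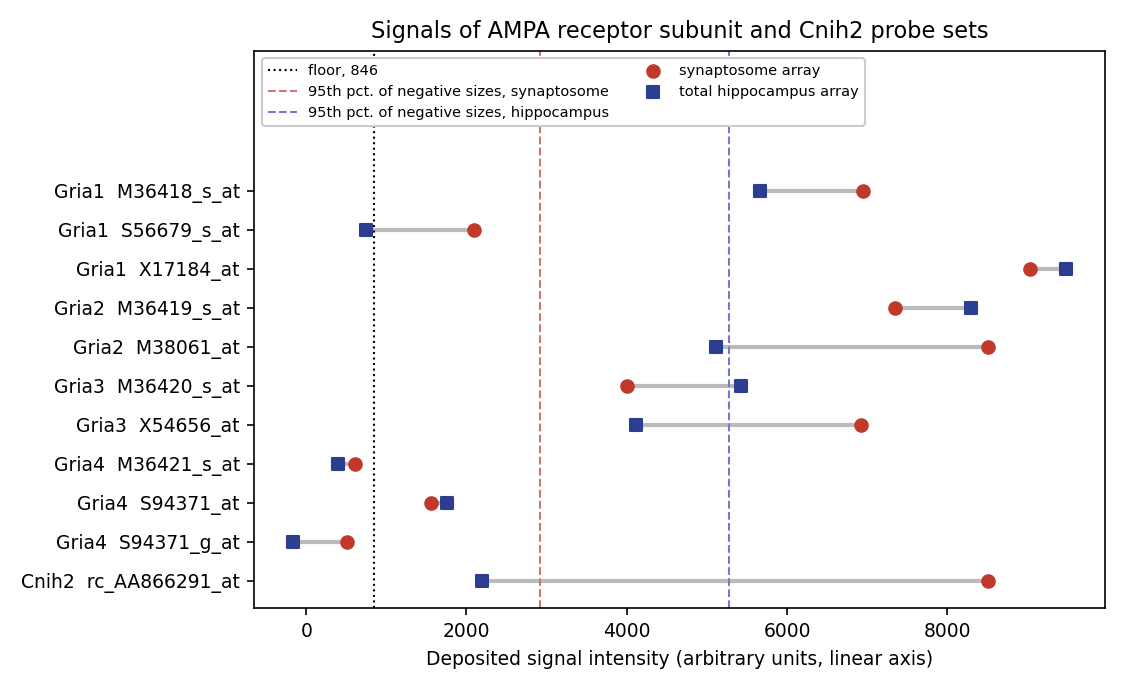
Deposited intensity (linear axis, arbitrary units) of each of the 11 probe sets on the synaptosome array (circles) and the total hippocampus array (squares), 1 array each; vertical lines mark the floor and the noise limit of each array. Cnih2 has the widest gap, 8511 against 2192, and 2 of the Gria4 probe sets lie under the floor of 846 on both arrays.

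Gria1 encodes GluA1, the subunit whose phosphorylation and trafficking have been studied most in long-term potentiation. Its brightest probe set, X17184_at, read 9035 in synaptosomes and 9481 in the hippocampus. The readings were close, and the log2 ratio was 0.10 with centring and -0.07 without, so its sign depends on that step. M36418_s_at read 6941 and 5656, a log2 ratio of 0.47. Both probe sets were above the noise limit on both arrays. The third, S56679_s_at, was 2095 in synaptosomes, and in the hippocampus it was 743, which is under the floor. That puts it at least 2.79-fold higher with centring, or at least 2.48-fold without. Both of its readings lay under the noise limits, so that the bound is not a guaranteed minimum.

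Gria2 encodes GluA2, which in its edited form makes the channel nearly impermeable to calcium. M36419_s_at read 7344 in synaptosomes and 8290 in the hippocampus, and its log2 ratio was 0.00 with centring and -0.17 without. M38061_at read 8503 and 5117, a log2 ratio of 0.90 or 1.87-fold. One probe set of Gria2 was therefore slightly lower by raw signal and the other higher, and both stayed inside 2-fold. The hippocampus signal of M38061_at was just under the noise limit of 5280.25.

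Gria3 encodes GluA3, which pairs mainly with GluA2. Its probe sets differed in direction too. M36420_s_at read 4007 in synaptosomes and 5429 in the hippocampus, a log2 ratio of -0.27, the lowest among these genes. X54656_at read 6927 and 4120, a log2 ratio of 0.92 or 1.89-fold. Without centring these ratios were -0.44 and 0.75. The hippocampus reading of X54656_at was under the noise limit, and both readings of M36420_s_at were above theirs.

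Gria4 encodes GluA4. Of its 3 probe sets only S94371_at was above the floor, with 1558 in synaptosomes and 1757 in the hippocampus. The readings were close, with a log2 ratio of 0.00 after centring and -0.17 before, and both were under the noise limits. M36421_s_at read 612 and 402, and S94371_g_at read 513 and -164. At this signal neither presence nor a difference was detectable with these probe sets, and they have no ratio.

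**Figure D2:**
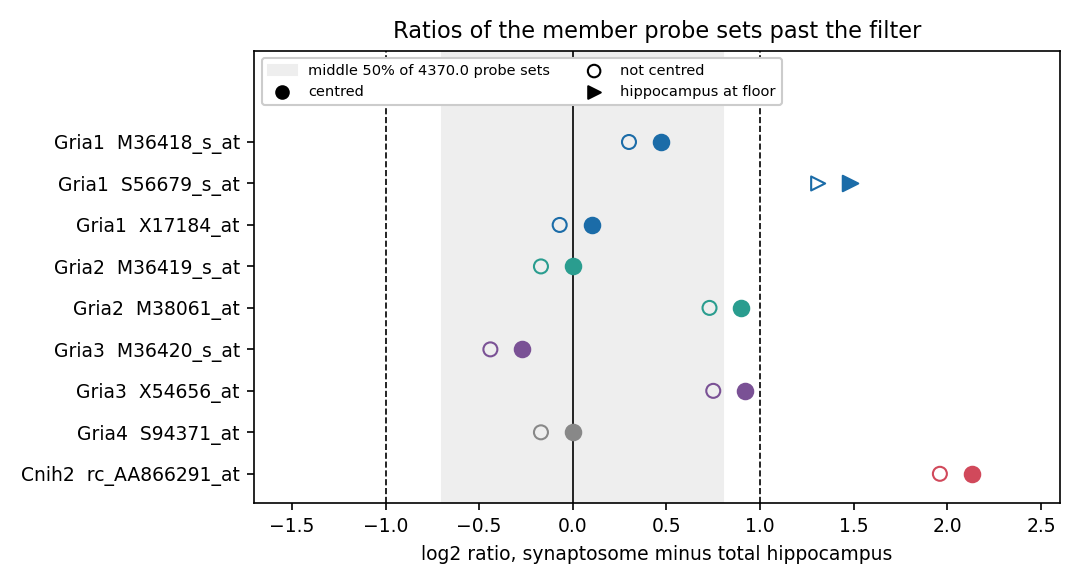
Log2 ratio of signal, synaptosome minus total hippocampus, for the 9 probe sets past the filter, with centring (filled) and without (open); triangles mark a hippocampus reading at the floor, dashed lines 2-fold, and grey the middle 50% of all 4370 filtered probe sets. Cnih2 at 2.13 and 1 Gria1 probe set at 1.48 lie beyond 2-fold, and the other 7 lie between -0.27 and 0.92.

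Of the 11 probe sets, 9 passed the filter and 2 of Gria4 did not. Among these 9, 2 were at least 2-fold higher in synaptosomes, those of Cnih2 and the dim Gria1 probe set. Over all 4370 filtered probe sets the share past this limit was 19.1%. The number at least 2-fold lower was 0, against 14.9% over all. Without centring the members' counts were the same, and the shares over all were 14.8% higher and 20.3% lower. Counts this small lie near the background and are not a result about the group. Of the 8 members above the floor on both arrays 1, Cnih2, was past 2-fold upward and 0 downward, where 13.5% and 11.0% of all 3392 such probe sets were. Of the 4 members above the noise limit on both arrays 0 were past 2-fold, where 6.75% of 1185 such probe sets were higher and 12.4% lower. The median log2 ratio of the 9 was 0.47, against 0.00 over all filtered probe sets, whose middle 50% spanned -0.70 to 0.80. For the 8 filtered subunit probe sets alone the median was 0.28. With centring 5 of these 8 had a ratio above 0 and 3 below, and without it 4 lay on either side. The filter removes dim probe sets and keeps those raised by 1 array, and S56679_s_at was above the floor on the synaptosome array only.

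**Figure D3:**
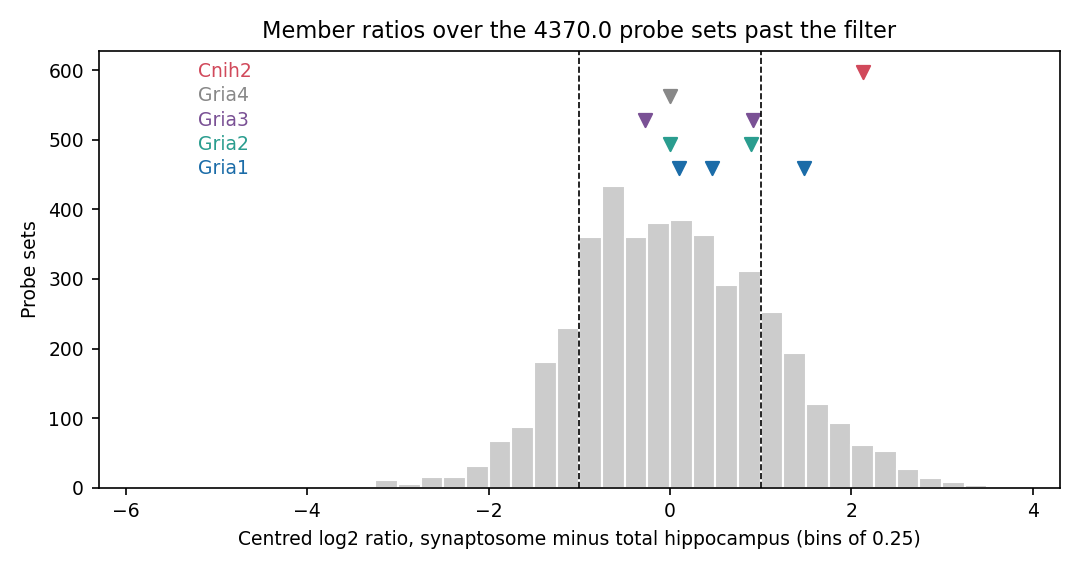
Histogram of the centred log2 ratio of the 4370 probe sets past the filter (bins of 0.25), with the probe sets of each gene as triangles above it and dashed lines at 2-fold. The subunit probe sets above the floor on both arrays fall in the body of the histogram, from -0.27 to 0.92, and Cnih2 at 2.13 falls in its upper tail.

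Probe sets of a gene gave the only measure of error. Pooled over the 658 genes that have more than 1 filtered probe set, log2 ratios of the same gene had a standard deviation (SD) of 0.90. This SD includes ratios with 1 array at the floor, which are bounds. It leaves out the spread between animals, preparations and amplifications. Gria1 spanned 1.38 between its 3 ratios, against a median span of 1.25 over 118 genes with 3 filtered probe sets. Gria2 spanned 0.91 and Gria3 1.19, against a median of 0.68 over 512 genes with 2. The disagreement between probe sets of one subunit was thus of the size seen for other genes, or somewhat above its median. Means over the probe sets of a gene were 0.45 for Gria2 and 0.33 for Gria3. For Gria1 the mean was 0.68 with the ratio of S56679_s_at, which is a bound set by the floor, and 0.28 without it.

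Ordered by the ratio of the brightest probe set, Cnih2 at 2.13 came first, then Gria3 at 0.92, Gria1 at 0.10, and Gria2 and Gria4 at 0.00. The step from Cnih2 to Gria3 was 1.21, more than the SD of 1 ratio and slightly less than 1.28, the SD that a difference of 2 such ratios would have. The step from Gria3 to Gria1 was 0.82 and also within it. Neighbours in this order therefore did not differ beyond the spread between probe sets. With the mean over probe sets Gria3 came after Gria2, and it came after Gria1 only if the floor-limited Gria1 probe set was included. With 1 value per gene, Cnih2 stood first under each of the 9 processing choices tried, with values from 0.85 to 2.15. The 0.85, with the floor at the noise limits, is a bound, since the hippocampus reading was raised to the floor. The Gria2 probe set M38061_at, not its brightest, was raised there too, with synaptosome readings of 8503 against 8511 for Cnih2. These 2 bounds are nearly equal, so the size of the lead of Cnih2 under that choice rests on the probe set used for Gria2. Being bounds, they do not settle an order.

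**Figure D4:**
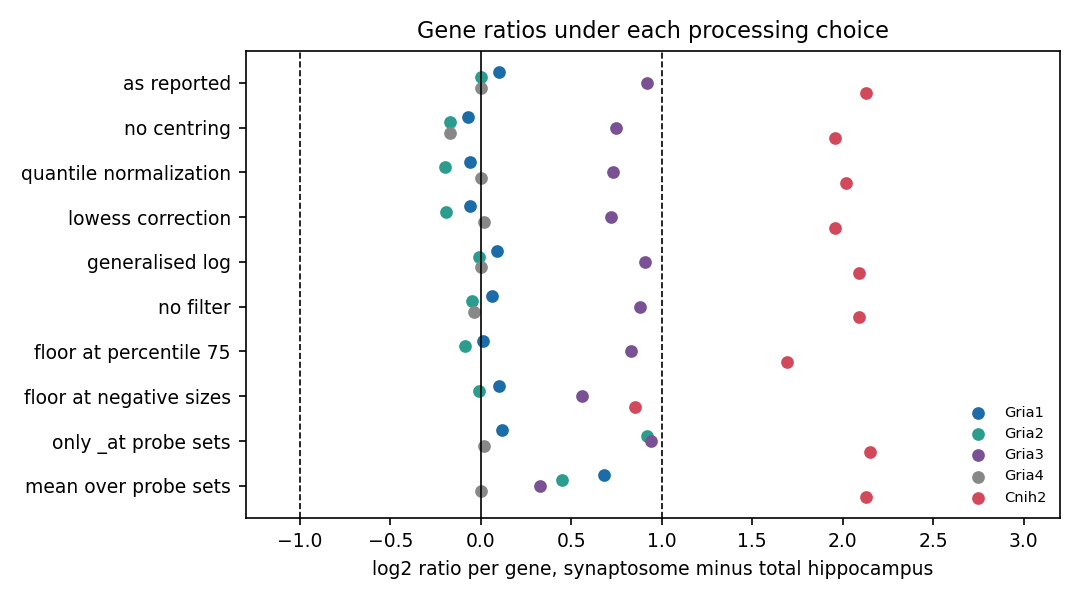
Log2 ratio per gene, synaptosome minus total hippocampus, as reported and under 9 processing choices, with dashed lines at 2-fold. Cnih2 is the highest in each row, between 0.85 and 2.15, where 0.85 is a bound set by the floor at the noise limits. Gria2 lies above Gria3 with the mean over probe sets, where the Gria1 value includes a bound set by the floor.

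Other genes of AMPA receptor biology were taken from fixed lists, with the brightest filtered probe set for each gene. Over all 2735 genes so treated, 19.1% were past 2-fold upward and 14.3% downward. Of 19 listed symbols for auxiliary and accessory subunits other than Cnih2, only Olfm1, a secreted protein found in AMPA receptor complexes, had a named probe set. It read 45030 in synaptosomes and 37409 in the hippocampus, a log2 ratio of 0.44. Its other probe set read 37634 and 26013, a ratio of 0.70.

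Scaffold and trafficking genes were divided. Of 22 on the array 15 passed the filter. In synaptosomes 4 were past 2-fold upward, 4 downward and 7 neither, and the median ratio was 0.04. The higher ones included both neuronal pentraxins, which cluster AMPA receptors from outside the cell. Nptx2 read 4854 and 1485 (3.68-fold) and Nptx1 15934 and 5450 (3.29-fold). Another Nptx1 probe set read 590 in synaptosomes and 3595 in the hippocampus, the opposite direction, with both readings under the noise limits. A further one read 786 and 1002 and did not pass the filter. Arc, which promotes AMPA receptor endocytosis, read 7351 and 2305 (3.59-fold). Ap2b1, an adaptor subunit of clathrin coats, was 2.01-fold higher with its brightest probe set and lay at -0.88 and 0.34 with 2 others, and without centring it was not past 2-fold. The hippocampus readings of Nptx2, Arc and Ap2b1 (4154) lay under the noise limit there, so the sizes of their folds are uncertain. For Nptx2 the synaptosome reading was also smaller than the hippocampus noise limit, so its direction is uncertain too. The other Nptx2 probe set read 5807 in synaptosomes and -22863 in the hippocampus, a log2 bound of 2.95. That hippocampus value is strongly negative, so the bound is not guaranteed.

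The 4 lower genes serve membrane traffic. Nsf, an ATPase that binds the GluA2 tail, read 1397 in synaptosomes and 4866 in the hippocampus (3.10-fold lower), and its other probe set was lower as well, at -322 and 2326. Rab5a, of early endosomes, was 2.87-fold lower with 1 probe set, while another gave a log2 ratio of 0.60. Ap2a2, an adaptor subunit, was 2.79-fold lower, and Rab11a, of recycling endosomes, 2.28-fold lower, with a bound of 0.54 in the other direction from another probe set. The brightest gene of the list, Ap2m1, had a ratio of -0.26. At the probe sets used, the synaptosome readings of these 4 lower genes were, in the order named, 1397, 1107, 993 and 925. Their hippocampus readings were 4866, 3580, 3116 and 2378. All of these lay under the noise limit of their array, so both the direction and the size of these folds are uncertain.

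Kinases and phosphatases that act on AMPA receptors had 5 of 16 filtered genes past 2-fold upward and 0 downward, with a median of 0.47. All 3 catalytic subunits of protein phosphatase 1 were among the higher ones. Ppp1cb read 6603 in synaptosomes and 1467 in the hippocampus (5.06-fold). Ppp1cc read 7073 and 684 (at least 9.41-fold), and Ppp1ca read 5146 and -3018 (at least 6.84-fold). These hippocampus readings lay under the noise limit, so the bounds are not guaranteed. For Ppp1ca the synaptosome reading was also smaller than the hippocampus noise limit, so its direction is uncertain too. Ptpn5, the striatal-enriched tyrosine phosphatase STEP, read 5809 and 2579 (2.53-fold), also with the hippocampus under that limit. Prkcb, named after its values were seen, was 2.01-fold higher with the brightest probe set, which is not past 2-fold without centring, and 2.25-fold and 3.60-fold with the others. Ppp3ca, the brightest gene of the list and a catalytic subunit of calcineurin, had a ratio of 0.15.

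**Figure D5:**
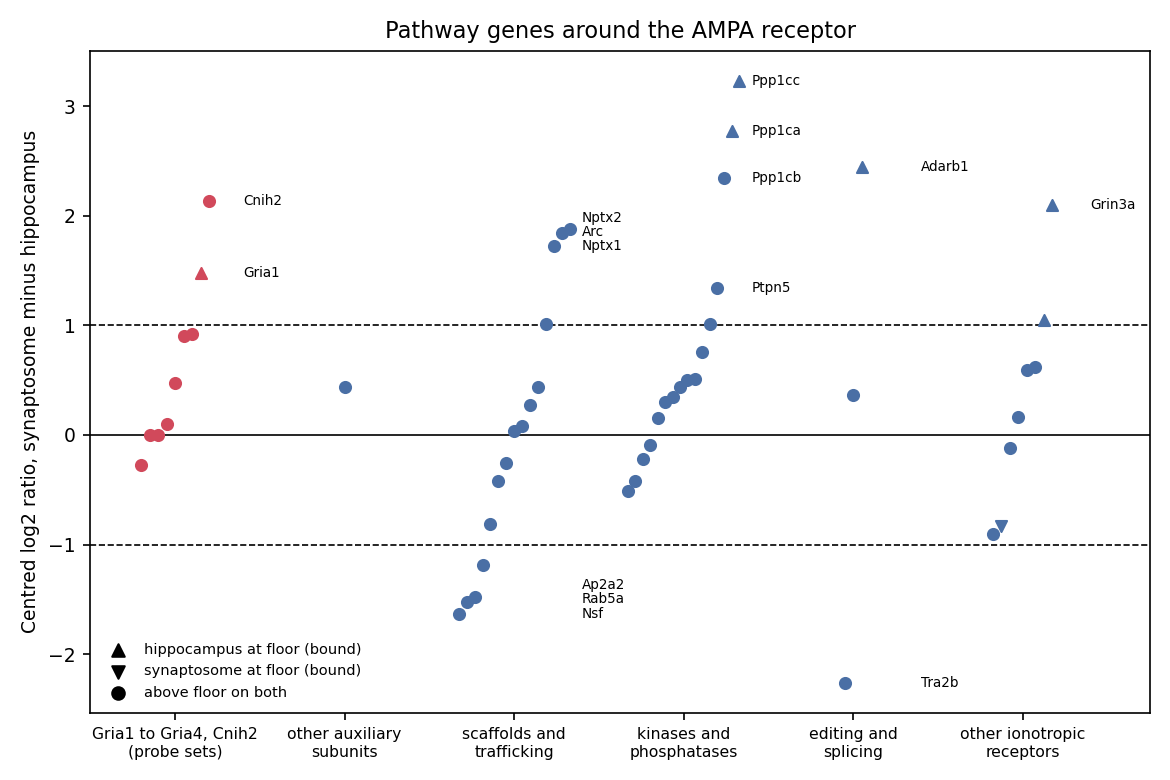
Centred log2 ratio, synaptosome minus total hippocampus, of the 9 filtered member probe sets and of the filtered genes of 5 lists, 1 probe set per gene; triangles are bounds with 1 array at the floor, and dashed lines mark 2-fold. Ppp1cc and Ppp1ca, both bounds, are the highest points, and Tra2b, at -2.26, is the lowest.

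Of the list for RNA editing and splicing of subunit transcripts, 3 of 6 genes on the array passed the filter. Adarb1, the enzyme that edits the GluA2 pore codon, read 4082 in synaptosomes and -717 in the hippocampus, at least 5.43-fold higher. Tra2b, a splicing factor, read 1437 and 7730, which is 4.78-fold lower, and its other probe sets above the floor had ratios of -1.45 and 0.07. Srsf2, also a splicing factor and the brightest of the list, had a ratio of 0.36. The hippocampus reading of Adarb1 and the synaptosome reading of Tra2b were under the noise limits. The Adarb1 bound is therefore not a guaranteed minimum, and the size of the Tra2b fold is uncertain. The synaptosome reading of Adarb1 was also smaller than the hippocampus noise limit, so its direction is uncertain too.

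Among the other ionotropic glutamate receptor genes, 8 of 12 passed the filter, with 2 past 2-fold upward, 0 downward and a median of 0.37. Without centring the counts were 1 and 1. Both higher genes encode less abundant NMDA receptor subunits and were at the floor in the hippocampus. Grin3a read 3234 and -128 (at least 4.30-fold), with bounds of 0.97 and -0.36 from its other probe sets, and Grin2d read 1557 and -13 (at least 2.07-fold with centring and under 2-fold without). The hippocampus readings of both and the synaptosome reading of Grin2d were under the noise limits, so neither bound is a guaranteed minimum. Both synaptosome readings were smaller than the hippocampus noise limit, so the direction of both is uncertain too. Grin2a, the brightest, read 7975 and 8052, a ratio of 0.16.

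Markers of the tissue's cell types differed between the arrays, and their part in the ratios above was not tested. Summed signals below cover every probe set of a list, filtered or not, negative values included. Of 7 neuronal markers on the array 6 passed the filter, with a median ratio of 0.07 and 2 at least 2-fold lower. The summed signal of the list was 172938 in synaptosomes and 350810 in the hippocampus. The 4 Snap25 probe sets gave 75621 and 254671 of this, and the other markers 97317 and 96139. Slc17a7 was at the floor on both arrays. Myelin markers had 3 of 5 at least 2-fold lower and 1 higher, with list sums of 31914 and 80017. Interneuron markers, which bear on Gria4, had 3 of 5 filtered genes at least 2-fold lower and 1 higher, and list sums of 19082 and 30235. Npy gave 7629 and 22487 of these sums, a wider gap than that of the whole list. Pvalb and Sst, the other lower genes, and Gad2, the higher one, were under the noise limits on both arrays. Gad1 had a ratio of 0.70. Astrocyte markers had 1 of 6 in each direction, with list sums of 254469 and 267691. Aldoc gave 64325 and 101688 of these with its brightest probe set and 69475 and 87045 with the other. S100b, the gene past 2-fold upward, gave 61538 and 27401. These large readings go in opposite directions, so the near-equal sums do not mean that each marker was unchanged. Markers of endothelium and blood had 2 of 4 lower and 0 higher, and the list sums, with the negative Vwf readings, were 11993 and 42618. The blood marker Hbb gave 6811 and 35126 of these sums. Of the microglial list only Aif1 passed, at 0.98 with its brightest probe set. Another Aif1 probe set read 7546 in synaptosomes and 1267 in the hippocampus, 6.70-fold higher, with the hippocampus under the noise limit. The remaining Aif1 probe set was at the floor on both arrays. The sums over that whole list, most of it at the floor, were 17388 and -7026. Across all non-control probe sets, which are not independent replicates, the Spearman correlation between the arrays was 0.78.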

How the data were processed

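The authors deposited linear intensity values as whole numbers, 1 column per array, per the value table. Neither scanner software nor background correction is named in the labels. Values at or below 0 made up 25.2% of the 8740 non-control probe sets for synaptosomes and 31.4% for the hippocampus. Means trimmed by 2% at each end were 2504 and 2505, so no scaling was added. A floor at percentile 50 (846) was set, then log2 was taken. Probe sets with a mean log2 level of at least 10.07, the median, passed the filter, and ratios were centred on their median. The 2-fold limit is a description with no test. All 5 member gene identifiers were found in the RefSeq gene table of assembly GRCr8, with 0 symbols changed. Named were all member probe sets and, per list, up to 4 genes farthest past 2-fold each way and the brightest. The 2 genes nearest to each member in signal, also in the rule, are left out, since levels of different probes cannot be compared. The members and lists were chosen with earlier results of these data known. The alternatives were other floors, scalings, filters, scales and probe sets. The software was pandas 2.3.3 and NumPy 2.4.6 under Python 3.11.15, with SciPy 1.17.1, statsmodels 0.14.6 and matplotlib 3.10.9. The steps were tested on simulated data without added noise, which checks the arithmetic and not the effect of noise or of the floor.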

Additional observations from a re-analysis of the deposited data

How the results depend on the processing

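The count of member probe sets at least 2-fold higher in synaptosomes was 2, and it was 1 with the floor at pooled percentile 75 and with unsuffixed probe sets only, where Cnih2 alone was left, and 0 with the floor at each array's noise limit. The latter follows from a floor above the hippocampus reading of Cnih2. It was 2 under the other 5 alternatives, and the count at least 2-fold lower was 0 under all 8. The median log2 ratio of the filtered member probe sets stayed above 0, from 0.26 to 0.92. Cnih2 ranged from 0.85 to 2.15, Gria1 from -0.07 to 0.68 (0.28 with the mean over its probe sets above the floor, chosen after seeing the data), Gria2 from -0.20 to 0.92, Gria3 from 0.33 to 0.94 and Gria4 from -0.17 to 0.02. Gria2 reached 0.92 only with unsuffixed probe sets, which leave M38061_at alone. No paired analysis was possible because each group has 1 array, and no replicate could be left out. Signal over background limits Gria4, the dim Gria1 probe set and the size of the Cnih2 difference.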
